A study of Homo sapiens with 2 samples.

Results

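The miR-181 family was followed through 2 small RNA libraries of K562 cells, a human erythroleukemia line that grows in suspension and carries traits of red cell and megakaryocyte precursors. The control library came from cells transduced with a GFP lentivirus. The other came from cells given a QKI5-overexpressing lentivirus, so both groups carry a lentivirus. QKI5 is the mainly nuclear form of the RNA-binding protein Quaking. The question set by the design is which miRNAs differ in abundance under QKI5. Members were taken by name, as the arms of miR-181a, miR-181b, miR-181c and miR-181d. The table lists 8 of the 9 names in the rule among its 2218 mature miRNAs, the other name being miR-181d without an arm. All 8 had reads in both libraries.

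A miRNA is cut from a hairpin in its primary transcript, and one arm (5p or 3p) usually enters Argonaute while the other is mostly lost. Bases 2 to 8 of the mature miRNA, the seed, pair with target mRNAs. In miR-181 the 5p arm is the main product. miR-181a is known from blood, where it promotes B-cell development and sets the sensitivity of T-cell receptor signalling in the thymus. QKI proteins bind RNA elements built around ACUAA.

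The mature sequences are shown because they set which members share a seed and which reads can be told apart. All 8 members matched a RefSeq mature sequence (GRCh38.p14). They are given 5′ to 3′ with the seed in capitals, 5p arms first.
hsa-miR-181a-5p: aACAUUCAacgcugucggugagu
hsa-miR-181b-5p: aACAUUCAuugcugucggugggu
hsa-miR-181c-5p: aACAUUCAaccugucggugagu
hsa-miR-181d-5p: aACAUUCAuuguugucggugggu
hsa-miR-181a-3p: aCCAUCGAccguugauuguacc
hsa-miR-181a-2-3p: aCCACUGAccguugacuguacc
hsa-miR-181b-3p: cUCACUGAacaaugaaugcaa
hsa-miR-181c-3p: aACCAUCGaccguugaguggac

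The 4 5p arms share the seed ACAUUCA, and the 4 3p arms have 4 different seeds. Of the 2218 listed miRNAs, 1946 matched a mature sequence and could be searched for the 5p seed. Among these, 1 more carries it, miR-4262, which had 0 reads in both libraries, which allows up to 0.129 RPM (reads per 1000000 reads of the library) with GFP and 0.458 RPM with QKI5. These limits are 3 reads and, like all intervals here, cover counting error only.

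Outside the seed the 5p arms differ by few bases. Counted from 1 at the 5′ end of the first-named miRNA, miR-181a-5p and miR-181b-5p differ by A9U, C10U and A21G. miR-181b-5p and miR-181d-5p differ by C12U alone. miR-181c-5p is miR-181a-5p with 1 base missing and 0 substitutions. No source used here states how the authors assigned reads that match several of these.

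The family comes from 6 hairpin genes in 3 pairs. MIR181A1 and MIR181B1 lie 61 bases apart on chromosome 1, in an intron of the long noncoding RNA MIR181A1HG. MIR181A2 and MIR181B2 lie 1158 bases apart on chromosome 9, in an intron of MIR181A2HG and antisense to an intron of NR6A1. MIR181C and MIR181D lie 66 bases apart on chromosome 19, in an intron of NANOS3 (RefSeq gene positions, GENCODE 29 host genes, both GRCh38; the authors' files are on hg19, so positions are left out). miR-181a-5p and miR-181b-5p are each made by a gene on chromosome 1 and another on chromosome 9, so their reads cannot be assigned to 1 gene. The 3p arms of miR-181a differ by U5C, C6U and U16C (miR-181a-3p first), and so tell MIR181A1 from MIR181A2.

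The hairpins of both miR-181a genes are shown because their 3p arms parted in these libraries. Capitals mark the mature arms, 5p first.
MIR181A1: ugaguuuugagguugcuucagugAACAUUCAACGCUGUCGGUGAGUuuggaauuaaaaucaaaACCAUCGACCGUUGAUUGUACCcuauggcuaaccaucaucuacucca
MIR181A2: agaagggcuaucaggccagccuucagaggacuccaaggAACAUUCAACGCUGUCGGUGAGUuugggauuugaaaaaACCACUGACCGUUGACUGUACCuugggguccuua

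Elements of the kind that QKI binds were searched on the RNA strand alone in the 1562 hairpins of the RefSeq table, which holds 5 of the 6 miR-181 hairpins (not MIR181B2). The letters ACUAA were in 3.27% of hairpins and in none of these 5. UAAC was in 12.5% of hairpins and, of these 5, in MIR181A1, 7 bases after its 3p arm. UAAU was in 15.2% and in none of the 5. UAAC and UAAU can lie inside a longer match to ACUAA. A match describes the letters and is not a binding site.

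The GFP library rested on 23262340 reads and the QKI5 library on 6553945, so GFP was 3.55 times as deep. There was 1 library per group. No difference has a replicate check, no p-value is given, and whether a library was 1 culture or several is not stated. The QKI5 transcript was not analysed here. Of the 2218 miRNAs, 604 had a mean of at least 1 RPM over the libraries, and all 8 members were among them. Some blood markers were high. The erythroid list (miR-451a, miR-144, miR-486 and miR-210) summed to 4148 RPM with GFP and 3464 RPM with QKI5. Of these sums, miR-451a alone made up 2798 and 2187 RPM. The myeloid and lymphoid list summed to 19110 and 20894 RPM. Nearly all of this came from its 4 entries at or above 1 RPM, the arms of miR-142 and miR-223. Its other entries, the arms of miR-155 and miR-150, were below 1 RPM in both libraries. Of these, miR-155-5p and miR-150-5p were each at 0.086 RPM with GFP and 0.153 RPM with QKI5. Of the lists for other cell types, muscle summed to 0.516 RPM with GFP and 3.05 RPM with QKI5, placenta to 0.731 and 1.22 RPM, and liver (miR-122) to 0.0430 and 0 RPM. The epithelial list summed to 69.3 and 83.6 RPM and the neuronal list, led by miR-9-5p, to 452 and 418 RPM. Of all the marker entries listed, 1 placental entry was at 0 in both libraries. The part of other cell types in the results below was not tested.

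Summed over its members, miR-181 was lower in the QKI5 library. The 8 members summed to 726 RPM with GFP and 558 RPM with QKI5, a ratio of 0.768 (95% exact conditional binomial interval 0.741 to 0.796). They made up 0.110% of all reads on listed miRNAs with GFP and 0.0938% with QKI5, a small part of both libraries. Listed miRNAs held 66.3% of the library's reads with GFP and 59.5% with QKI5. The gap was therefore smaller per listed read than in RPM, and the interval above holds for RPM only. The 5p arms held 92.2% of the family's reads with GFP and 93.2% with QKI5. Summed, the 4 arms that share the seed stood at 670 RPM with GFP and 520 RPM with QKI5, a ratio of 0.776 (0.748 to 0.806). The 3p arms summed to 56.8 and 38.0 RPM, a ratio of 0.669 (0.582 to 0.767). This interval overlaps that of the 5p arms, but such overlap does not compare the arms within a library.

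miR-181a-5p, the most abundant member and the one best known from lymphocytes, stood at 517 RPM with GFP (12032 reads) and 412 RPM with QKI5 (2698 reads). It ranked 68 by level with GFP and 77 with QKI5, and its ratio was 0.796 (0.763 to 0.830). It alone was 71.2% of the family with GFP and 73.8% with QKI5. miR-181c-5p was next, at 82.1 RPM with GFP (1910 reads) and 64.7 RPM with QKI5 (424 reads). Its ratio of 0.788 (0.708 to 0.876) was close to that of miR-181a-5p, although it is made on chromosome 19. These sequences differ by 1 missing base, and the part of misassigned reads in this likeness was not tested. There were 15.9 miR-181c-5p reads per 100 miR-181a-5p reads with GFP and 15.7 with QKI5. That ratio of ratios was 0.990, with an interval of 0.882 to 1.11.

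miR-181b-5p, made beside miR-181a in both of its clusters, was the lowest of the abundant 5p arms relative to GFP. It stood at 69.3 RPM with GFP (1611 reads) and 42.1 RPM with QKI5 (276 reads), a ratio of 0.608 (0.533 to 0.691). There were 13.4 miR-181b-5p reads per 100 miR-181a-5p reads with GFP and 10.2 with QKI5. This comparison within a library does not depend on how columns were scaled, and the ratio of the ratios was 0.764 (0.666 to 0.875). Against miR-181c-5p it was 0.772 (0.651 to 0.913). With reads taken as independent, counting error alone therefore does not cover the gap between miR-181b-5p and the other abundant 5p arms. The spread between cultures is unknown.

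miR-181d-5p was barely present. It had 25 reads with GFP (1.07 RPM) and 9 with QKI5 (1.37 RPM), and the interval of its ratio, 0.525 to 2.83, spans 1. MIR181C and MIR181D lie in the same intron, and there were 1.31 miR-181d-5p reads per 100 miR-181c-5p reads with GFP and 2.12 with QKI5. The part of misassigned reads in these low values was not tested. Against miR-181b-5p, from which it differs by C12U alone, miR-181d-5p had 1.55 reads per 100 with GFP and 3.26 with QKI5 (ratio of ratios 2.10, 0.853 to 4.71). A difference between these 2 libraries was not detectable at this depth for miR-181d-5p. The 3p arm of the same hairpin, miR-181d-3p, is listed in the table but not named in the rule, and it had 1 read with GFP and 0 with QKI5.

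**Figure D1:**
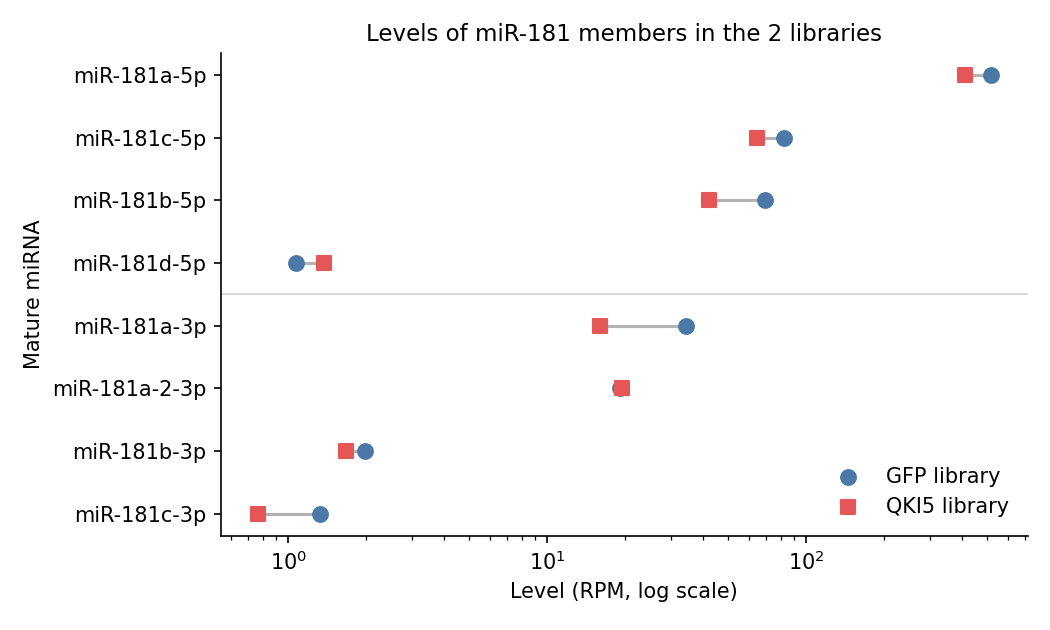
Level of each miR-181 member in RPM on a log axis, with 1 point per library (circles GFP, squares QKI5) and 5p arms above the line. miR-181a-5p stands at 517 and 412 RPM, far above the others, and the QKI5 point lies left of the GFP point for 6 of the 8 members.

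The 3p arms of miR-181a differed between its hairpins. miR-181a-3p, the product of MIR181A1, stood at 34.4 RPM with GFP (800 reads) and 16.02 RPM with QKI5 (105 reads), 2.15-fold lower (1.75 to 2.66). miR-181a-2-3p, the product of MIR181A2, stood at 19.1 RPM with GFP (444 reads) and 19.5 RPM with QKI5 (128 reads), a ratio of 1.02 (0.834 to 1.25). The arm from chromosome 1 was thus the more abundant of the pair with GFP, and with QKI5 their counting intervals overlapped.

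Set against each other within a library, there were 1.80 miR-181a-3p reads per miR-181a-2-3p read with GFP and 0.820 with QKI5. The ratio of these was 0.455, with an interval of 0.339 to 0.610. miR-181a-3p made up 64.3% of the reads of both 3p arms with GFP (exact Clopper-Pearson interval 61.6% to 67.0%) and 45.1% with QKI5 (38.6% to 51.7%). The chromosome 9 arm, the smaller part in the GFP library, was the larger part in the QKI5 library by its point value, though that last interval includes an even split.

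Relative to their common 5p arm they differed in opposite directions. There were 6.65 miR-181a-3p reads per 100 miR-181a-5p reads with GFP and 3.89 with QKI5, a ratio of 0.585 (0.471 to 0.722). miR-181a-2-3p had 3.69 reads per 100 with GFP and 4.74 with QKI5, a ratio of 1.29 (1.04 to 1.58). Pooled over both hairpins the 3p arms stood at 10.3 reads per 100 with GFP and 8.64 with QKI5, a log2 change of -0.26. The ratio of these was 0.835, and its interval of 0.719 to 0.968 excluded 1. Since 5p reads from the 2 genes are identical, the share of each gene in miR-181a-5p cannot be told from these data.

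**Figure D2:**
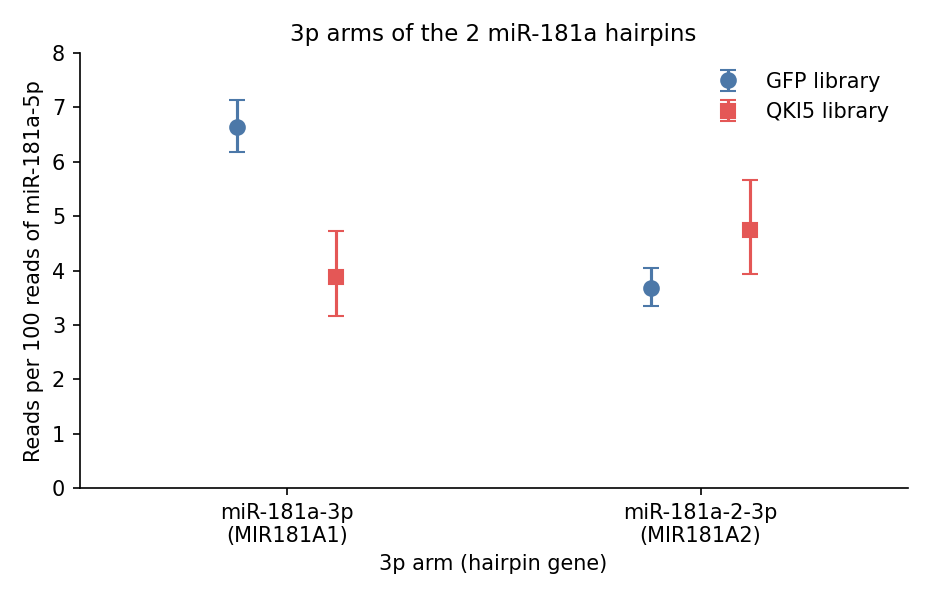
Reads of each miR-181a 3p arm per 100 reads of miR-181a-5p (vertical axis) in the GFP library (circles) and the QKI5 library (squares), with 95% exact intervals that cover counting error only. The arm of MIR181A1 is at 6.65 with GFP and 3.89 with QKI5, and that of MIR181A2 at 3.69 and 4.74.

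Other sister arms were set side by side in the same way. All pairs of arms that are named as products of paralogous hairpins with the same number and letter, each with at least 20 reads over both libraries, were taken. Among these 8 pairs, 4 (50%) shifted by at least 2-fold, the miR-181a pair being one of them, and 3 shifted by more. The others past 2-fold were the 3p arms of miR-26a and miR-16 and the 5p arms of miR-24, at log2 changes of 2.44, -1.36 and -1.33, the last with 10 and 13 reads in the QKI5 library and an interval of its ratio of ratios, 0.126 to 1.24, that spans 1. The other 4 pairs shifted by 0.03 to 0.42 in size. The intervals of the miR-26a and miR-16 pairs, 2.43 to 11.6 and 0.257 to 0.586, excluded 1, as did that of the miR-181a pair, whose log2 change was -1.14.

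The balance of 3p to 5p varied widely over hairpins. Over 186 hairpins with both arms at 20 reads or more, the log2 change of 3p reads per 5p read had a median of -0.19, with the middle of the distribution running from -0.89 (lower quartile) to 0.56 (upper quartile). The ratio was at least 2-fold lower with QKI5 for 22% of these hairpins and at least 2-fold higher for 14.5%. miR-181a-3p per miR-181a-5p, at -0.77, lay inside that middle range, with 50 hairpins lower. Its miR-181a-5p reads pool both genes, so this is not the balance of MIR181A1 alone.

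miR-181b-3p and miR-181c-3p were rare. miR-181b-3p, by name the second 3p product of the chromosome 1 pair, had 46 reads with GFP (1.98 RPM) and 11 with QKI5 (1.68 RPM). Its ratio was 0.849 (0.396 to 1.66). The 3p arm of MIR181B2 on chromosome 9, miR-181b-2-3p, is not listed, and whether its reads were counted under miR-181b-3p is not known. Per 100 reads of miR-181b-5p, miR-181b-3p stood at 2.86 with GFP and 3.99 with QKI5. Both intervals are wide: that of the arm balance ran from 0.644 to 2.78.

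miR-181c-3p had 31 reads with GFP (1.33 RPM) and 5 with QKI5 (0.763 RPM), a ratio of 0.572 (0.174 to 1.49). Its sequence, read 1 base further in, differs from miR-181a-3p at 2 of 21 positions. Per 100 reads of miR-181c-5p it stood at 1.62 with GFP and 1.18 with QKI5, with an interval of the balance from 0.219 to 1.90. For neither arm was a difference between libraries detectable at this depth. Whether the products of the chromosome 1 pair differed alike cannot be read from miR-181b-3p: against miR-181a-3p its ratio of ratios was 1.82, with an interval of 0.824 to 3.71.

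**Figure D3:**
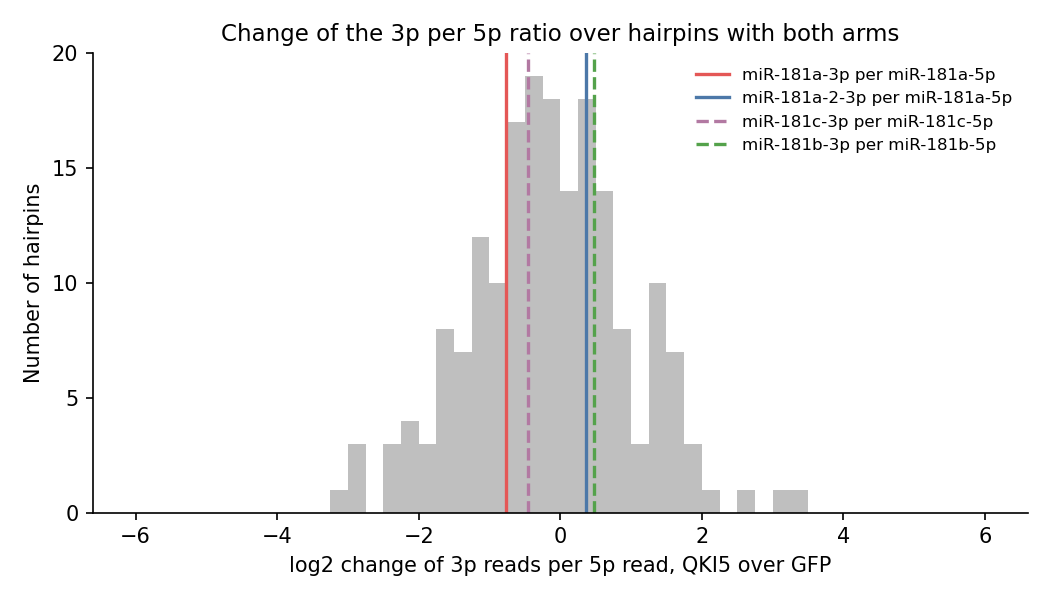
Histogram of the log2 change of 3p reads per 5p read, QKI5 over GFP, over 186 hairpins with at least 20 reads on each arm (vertical axis, number of hairpins). Lines mark the miR-181 arms, which lie between -0.77 (miR-181a-3p) and 0.48 (miR-181b-3p), all within the body of the distribution.

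In order of level, both libraries began with miR-181a-5p, miR-181c-5p and miR-181b-5p, whose 95% Poisson intervals were separate in each library (for the closest, 78.5 to 85.9 against 65.9 to 72.7 RPM with GFP). The fourth place went to miR-181a-3p with GFP and to miR-181a-2-3p with QKI5. With GFP these 2 were separate, while with QKI5 their intervals, 13.1 to 19.4 and 16.3 to 23.2 RPM, overlapped. The last 3, miR-181b-3p, miR-181c-3p and miR-181d-5p, had intervals that overlapped one another in both libraries.

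On the log2 scale with a pseudocount of 0.153 RPM, which understates the ratio of rare miRNAs, 6 of the 8 members were below 0 and 2 above, with a median of -0.34. The 604 miRNAs at or above 1 RPM had a median of 0.24, and 363 of them were above 0. The median of the 5p arms was -0.34, against 0.24 for all 255 5p arms at that level. The median of the 3p arms was -0.46, against 0.19 for all 240 3p arms. The family's 3p median lies midway between miR-181c-3p and miR-181b-3p, which had only 5 and 11 reads with QKI5. The 3p arms with more reads, miR-181a-3p and miR-181a-2-3p, parted, at -1.09 and 0.03. As deposited, 7 of the 8 members lay below the median of the 604 and the family's median lay 0.58 below it. A scaling that multiplies a whole column leaves these positions as they are or nearly so. Of the settings that can reorder miRNAs, a pseudocount of 1 RPM and quantile normalization gave 8 members below, at distances of 0.55 and 0.63, and 0.5 reads as pseudocount and removal of the GC trend gave 7, at 0.60 and 0.54. Whether a member near 0 lies above or below it depends on the scaling, which moves all miRNAs at once: miR-181a-2-3p was at 0.03 as deposited and -0.32 under quantile normalization, and miR-181d-5p at 0.31 and -0.02. miR-181b-3p was above 0 (0.04) with the trend on GC content removed.

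At least 2-fold lower was 1 of the 8 members, miR-181a-3p at -1.09, and 0 were 2-fold higher. Among the 604 miRNAs, 7.45% were 2-fold lower and 21.2% were 2-fold higher, so the family's single call lies near the background. Of all calls, 74.0% were higher, against 50.3% under quantile normalization, 50.9% and 27.1% under 2 trimmed means, and 82.3% when columns were rescaled to the listed miRNAs. miR-181a-3p was itself at -0.94, just inside 2-fold, under that last rescaling. By its log2 ratio, 39 of the 604 miRNAs were lower than miR-181a-3p, 79 than miR-181b-5p and 163 than miR-181a-5p. A test of the reads by the exact binomial distribution, which compares these libraries and not the conditions, called miR-181a-5p, miR-181a-3p, miR-181b-5p and miR-181c-5p lower, with Benjamini-Hochberg adjustment at 0.05. It called 22.4% of the 604 miRNAs lower and 37.3% higher, and over all 1995 detected miRNAs it called 426.

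**Figure D4:**
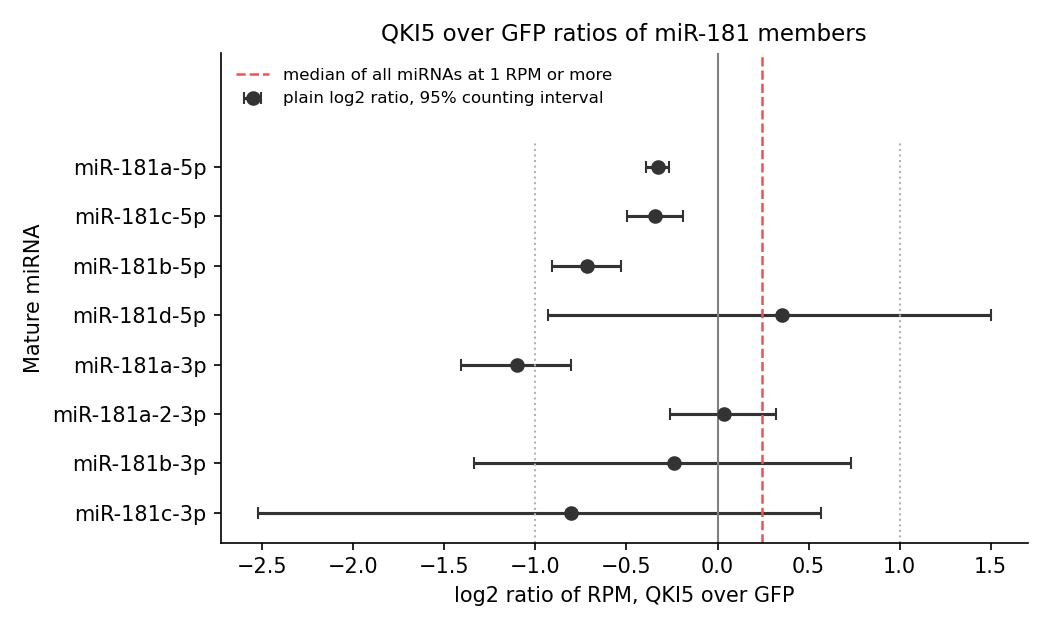
Plain log2 ratio of RPM, QKI5 over GFP (horizontal axis), for each member with its 95% counting interval. The dashed line is the median of all miRNAs at 1 RPM or more (0.24, with the pseudocount) and dotted lines mark 2-fold. The intervals of miR-181a-5p, miR-181c-5p, miR-181b-5p and miR-181a-3p lie wholly below 0, and those of the other 4 include it.

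**Figure D5:**
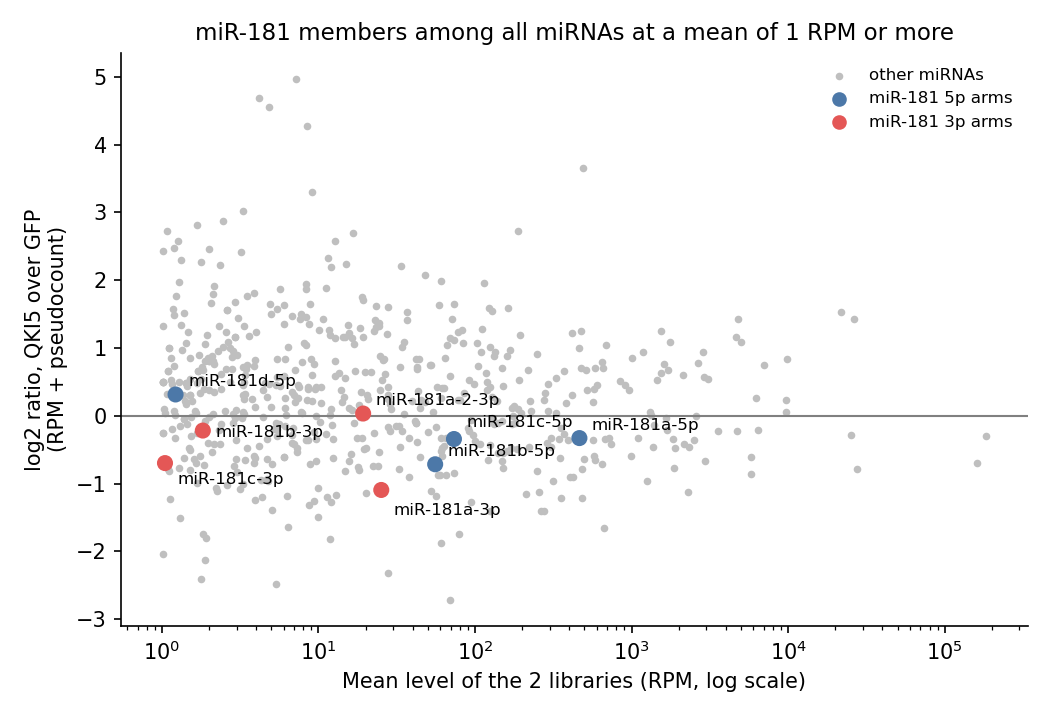
Log2 ratio with the pseudocount (vertical axis) against mean level in RPM (log axis) for the 604 miRNAs at or above 1 RPM, with miR-181 arms in colour. The miR-181 points lie between -1.09 and 0.31 and inside the cloud of other miRNAs.

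GC content moved with the ratio over all miRNAs. Across the 535 of 604 miRNAs that matched a mature sequence, the log2 ratio was 0.25 higher per 10 percentage points of GC (Pearson's r across miRNAs 0.294, a description, since they share 2 libraries). Members ran from 38.1% to 54.5% GC around a median of 47.8% over all. With the linear trend removed, the log2 ratio was -0.31 for miR-181a-5p, -0.70 for miR-181b-5p and -1.13 for miR-181a-3p. The 3p arms of miR-181a, at 50% and 54.5% GC, stayed apart, at -1.13 and -0.12.

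Families built in the same way, with 5p guides from several paralogous clusters, did not share one direction. The 4 miR-30 5p arms at or above 1 RPM, known for wide expression, had a median log2 ratio of -0.20 with 3 below 0, and their leader miR-30b-5p had a ratio of 0.796 (0.775 to 0.818), the same to 3 digits as miR-181a-5p. All 9 let-7 and miR-98 5p arms were above 0, with a median of 1.16. The 4 arms of miR-15 and miR-16 with relatives had a median of 0.21, with 2 below 0. Of 40 arms at that level from a list of miRNAs studied in blood cell differentiation, 17 were below 0, 2 were 2-fold lower and 7 were 2-fold higher, with a median of 0.15. The most abundant of these, miR-126-3p, known from endothelium and blood precursors, had a ratio of 2.69. The leukocyte miRNA miR-142-3p was at 1.17 and the red cell miRNA miR-451a at 0.782. Neither stands for its marker list. Of the 6 erythroid entries at or above 1 RPM, 4 were above 0 and 2 below, with a median log2 ratio of 0.16. Of the 4 myeloid and lymphoid entries, 3 were above 0 and 1 below, miR-142-5p at -0.34.

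The miRNAs nearest to miR-181a-5p in log2 level over both libraries, by Euclidean distance over these 2 points, were miR-29a-3p (distance 0.24), miR-154-5p (0.32), miR-665 (0.35), miR-30c-5p (0.40) and miR-487b-3p (0.45). Those nearest to miR-181b-5p were miR-1197 (0.12), miR-495-5p (0.15), miR-656-3p (0.23), miR-1307-3p (0.24) and miR-132-5p (0.29). With 2 libraries this likeness says only that levels were close in each.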

How the data were processed

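Small RNA was sequenced on an Ion Proton instrument, per the labels' protocols, with Bowtie 0.12.3 and build hg19 named in the submitters' processing notes. No source used here states the miRNA annotation, the mismatches allowed or the use of strand. The authors deposited 1 value per library and miRNA in a table named RPKM, but the deposited values are RPM: 100.0% of values above 0 in each column were whole multiples of 1 step, within 0.1 of a read, and that step (0.0430 RPM for GFP, 0.153 RPM for QKI5) is 1 read. Reads and library totals were recovered from it.

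Ratios are plain ratios of RPM with exact conditional binomial 95% intervals. Log2 ratios use a pseudocount of 0.153 RPM. Ratios between arms within a library carry exact conditional odds-ratio intervals. A miRNA was counted at 2-fold among those with a mean of at least 1 RPM. With 1 library per group there was no test of QKI5. Intervals cover counting error only and take reads as independent. PCR copies cannot be told apart, and where they are present the intervals are too narrow. Alternatives varied pseudocount, scaling, level filter, fold threshold and GC content. The exact binomial test on reads, a trimmed mean limited to miRNAs at or above 1 RPM, single hairpins in the arm balance and a read minimum were added after seeing the data, as was the comparison of sister arms.

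The members and lists were chosen with earlier results of these data known. The text names every member, other miRNAs with the 5p seed, the 5 nearest to miR-181a-5p and to miR-181b-5p, and the leading miRNAs of fixed lists; the other sister arms and lists' examples were named after their values were seen. Intervals and ratios were tested on simulated data. Python 3.11.15, numpy 2.4.6, scipy 1.17.1, pandas 2.3.3 and matplotlib 3.10.9 were used.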

Additional observations from a re-analysis of the deposited data

How the results depend on the processing

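No median of the family changed sign under another pseudocount, scaling, filter or GC correction. Balances between arms were recomputed for pooled miR-181a and for miR-181b-5p per miR-181a-5p. They kept their sign with a pseudocount of 1 RPM and with the GC trend removed, the only such settings run. The balances of miR-181a with a single 3p arm, given below, differed in sign. The median log2 ratio of the 5p arms moved from -0.34 to -0.18 when rescaled to the listed miRNAs and to -0.91 under a trimmed mean over all miRNAs with a read in both libraries. It was -0.63 under a trimmed mean over miRNAs at or above 1 RPM and -0.52 under quantile normalization. The median of the 3p arms, -0.46, was -1.03 and -0.75 under these trimmed means, -0.83 under quantile normalization and -0.28 with a pseudocount of 1 RPM. The median of all members, -0.34, was -0.91 and -0.63 under the trimmed means, -0.63 under quantile normalization and -0.18 when rescaled to the listed miRNAs. The count of members at least 2-fold lower, 1 as deposited, was 0 when rescaled to the listed miRNAs, 3 under that trimmed mean, 2 under the narrower one, 2 under quantile normalization, 3 at a threshold of 1.5-fold and 4 by the exact binomial test of reads. The count of members 2-fold higher was 0 under each. The balance of 3p to 5p reads of miR-181a was -0.26 over both hairpins on the log2 scale. It was -0.77 with the 3p arm of MIR181A1 alone and 0.36 with that of MIR181A2 alone. Both were set against miR-181a-5p reads that pool the genes, so neither is the balance of a single hairpin. Scaling shifted the median of all 604 miRNAs by 0.16 (listed miRNAs), -0.11 (without the 10 most abundant), -0.58 and -0.29 (trimmed means) and -0.25 (quantile). Counts of miRNAs 2-fold higher and lower, 128 and 45, were 51 and 137, 83 and 80, and 84 and 83 under the last 3 of these. The cause was not tested. Depth limits miR-181b-3p, miR-181c-3p and miR-181d-5p, with 5 to 11 reads each in the QKI5 library. It also limits the median of the 3p arms, which as deposited rests on miR-181b-3p and miR-181c-3p. No paired analysis was possible because there was 1 library per group.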
